A study of Mus musculus with 12 samples.

Results

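Genes of the endoplasmic reticulum (ER) stress and amino acid responses were followed in mouse liver, 10 in number: Atf4, Atf5, Atf6, Ddit3, Trib3, Asns, Chac1, Sesn2, Xbp1 and Herpud1. They were taken from the arrays by gene symbol, from a set of names drawn up with earlier results of these data known, and all 10 had a probe, 1 each, among the 17742 genes measured. Livers came from untreated control mice, from mice with diabetes induced by STZ (streptozotocin, a toxin of the insulin-producing beta cells) and from STZ mice treated with MENS, a treatment that the labels name without spelling out. The labels describe MENS as given through a printed circuit board for 1 h a day on 5 days a week over 6 weeks, and give an age of 8 weeks for every group. Strain and sex are not named in the labels. Every group had 2 liver RNA samples, numbered 1 and 2 here in the order of deposit, with 2 arrays for each, so n = 2 in every group. The titles number these samples 1 and 6 in control and in STZ+MENS, and 4 and 10 in STZ. The order of deposit thus matches the title numbers between control and STZ+MENS only, and the main fit paired no samples. Whether a sample is 1 animal is not stated in the labels, so a p-value reflects the spread of these samples alone, which may be technical.

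When unfolded protein builds up in the ER, PERK (Eif2ak3), IRE1 (Ern1) and ATF6 signal to the nucleus. PERK, and GCN2 when amino acids are short, phosphorylate the initiation factor eIF2, which lowers protein synthesis overall but raises translation of the transcription factor ATF4. ATF4 then switches on amino acid synthesis, transport and stress genes. IRE1 splices the Xbp1 mRNA and ATF6 is cut from the membrane, so much of this control acts after transcription, and total mRNA on an array does not report it. The liver, a heavily secreting organ, carries a large ER load.

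ATF4 and its partners bind a short element known as the C/EBP-ATF response element, and the ATF6 and XBP1 arm acts through ER stress response elements. Promoters of 300 bases (250 before the start of the gene to 50 after it; RefSeq, GRCm38.p6) were found for 9 of the 10 genes, in 10 entries, since Atf5 had 2 and Atf6 had none. Both strands were searched for TGATGNAA, the core of the first element. It was present in 4 of the 10 entries, against 3.97% of all 32851 promoters of that length. CCAAT and CCACG set 9 bases apart (ERSE) were found in 0 of the 10 entries and 0.119% of all, and ATTGG and CCACG set 1 base apart (ERSE-II) in 1 entry, Herpud1, and 0.0365% of all. TGACGTGG and TGACGTCA were found in 0 of the 10 entries, against 0.676% and 1.79% of all. The stretches that hold a match are shown because 3 of the 4 genes with the core element (Trib3, Asns and Chac1) have the widest range over the 6 samples (the highest sample over the lowest; 13.6-fold for Trib3, 2.68-fold for Chac1 and more than either for Asns). Capitals mark the match, no 2 matches overlap, and a match is a description of the letters, not a measured binding site.
Asns, 23 bases before the start, minus strand, chr6:7693205-7693252: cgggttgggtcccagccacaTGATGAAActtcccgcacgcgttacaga
Chac1, 193 bases before the start, plus strand, chr2:119351029-119351076: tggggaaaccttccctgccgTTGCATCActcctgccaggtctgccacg
Herpud1, 112 bases before the start, plus strand, chr8:94386297-94386344: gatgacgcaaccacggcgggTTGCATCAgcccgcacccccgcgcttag
Herpud1, ERSE-II, 52 bases before the start, plus strand, chr8:94386357-94386407: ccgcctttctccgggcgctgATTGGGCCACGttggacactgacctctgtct
Trib3, 15 bases into the transcript, minus strand, chr2:152344029-152344056: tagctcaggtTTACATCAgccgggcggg

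The correlation across genes between the 2 arrays of a sample was 0.986 to 0.996. Between samples of a group it was 0.976 to 0.988, which overlaps the 0.958 to 0.985 between groups. All 7 measured hepatocyte markers were bright, at 16246 or more on every array. In 1 limma fit of all 3 groups, with p adjusted over all genes (Benjamini-Hochberg), 1 gene was called in STZ against control (0.00564% of those tested), 0 in STZ+MENS against STZ (0% of those tested) and 1 in STZ+MENS against control (again 0.00564%). The called gene was Top2b both times, which is no member of the pathway. None of the 10 stress genes passed in any of the 3 comparisons, nor in the test of any difference among the groups, which called 1 gene (0.00564%). By limma's unadjusted p under 0.05 that last test marked 3 of the 10, Atf5, Trib3 and Chac1, against 25.2% of all genes. The comparisons share samples: STZ enters the first and second, control the first and last. Levels below are given as array intensity averaged over the 2 arrays of a sample, and differences as log2(intensity + 50) with the standard error of the fit.

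**Figure D1:**
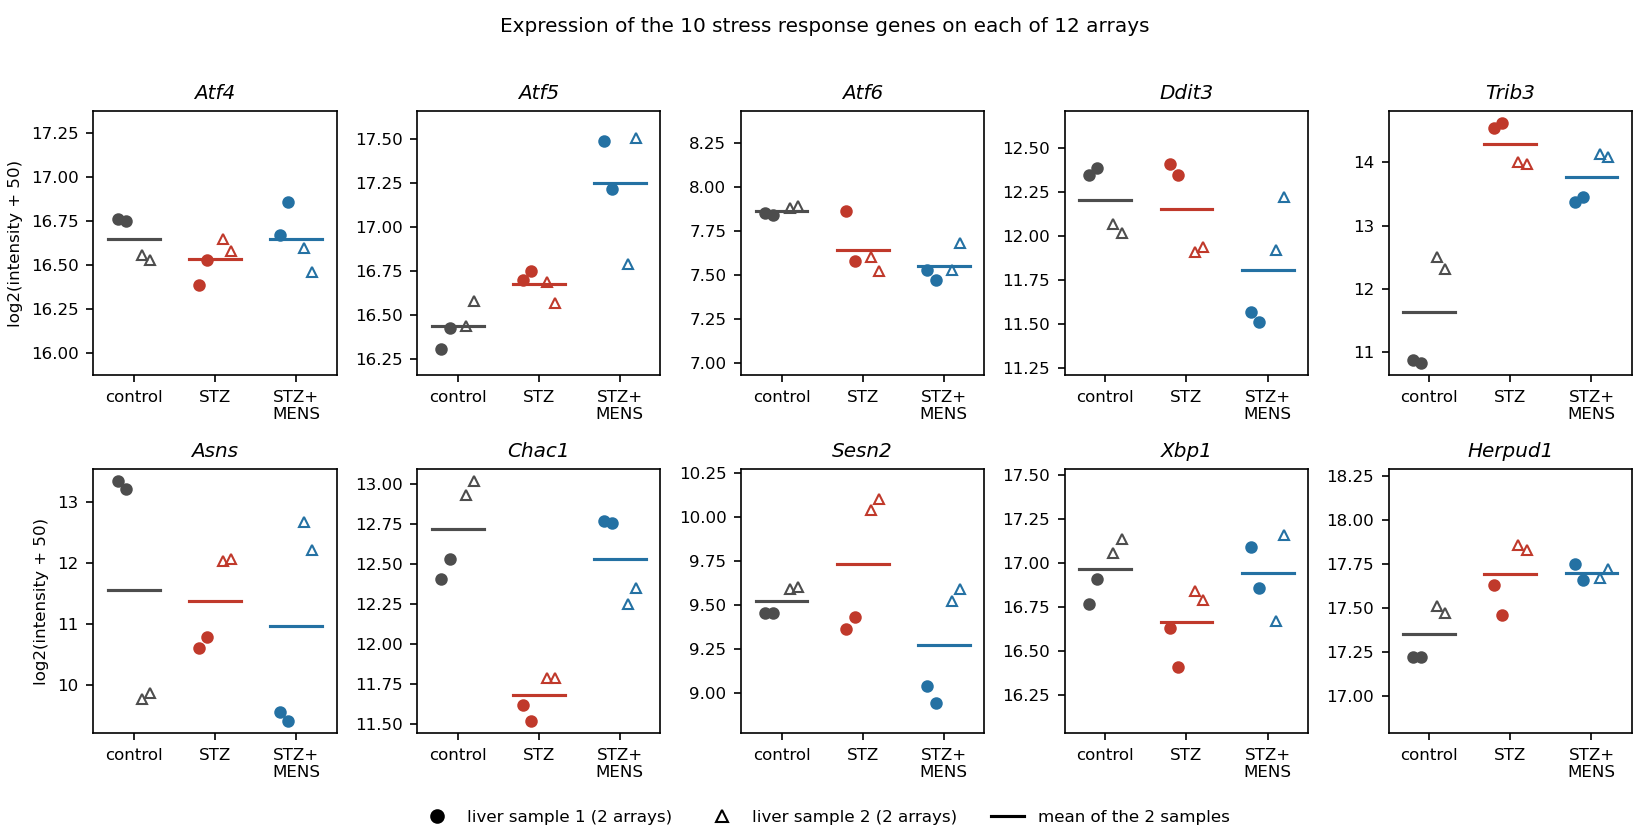
Levels of the 10 genes on all 12 arrays, as log2(intensity + 50) on the vertical axis, by group on the horizontal axis; filled circles are the arrays of sample 1, open triangles those of sample 2, and bars the mean of the 2 samples. Asns differs more between the 2 samples of each group than between the groups, while Trib3 is higher on every STZ and STZ+MENS array than on every control array.

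Trib3 showed the widest difference of the 10. It encodes tribbles pseudokinase 3, an ATF4 and CHOP target known for holding back the insulin-signalling kinase Akt in liver. Its intensity was 1802 and 5397 in control samples 1 and 2, 24545 and 16300.4 in STZ, and 10872 and 17711 in STZ+MENS. All 4 samples of the STZ-treated groups lay above both controls, while the STZ and STZ+MENS samples overlapped. STZ was 6.32-fold above control (log2 difference 2.66 ± 0.53 SE, 95% interval 1.38 to 3.94, limma unadjusted p = 0.00216, adjusted p = 0.125) and STZ+MENS 4.39-fold (2.13 ± 0.53, adjusted p = 0.139). The 2 controls were themselves 1.55 apart on the log2 scale, and without control sample 1 or control sample 2 the difference of STZ from control was 1.88 or 3.44. Only 40 of the 17742 genes had group means that spanned a wider range than those of Trib3 (2.66). STZ+MENS differed from STZ by -0.53 ± 0.53, with a 95% interval of -1.81 to 0.76. In bulk liver, fewer cells of a type and less RNA per cell cannot be told apart, here and in every result that follows.

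Asns, the asparagine synthetase that ATF4 turns on when amino acids run short, varied more between samples of a group than between groups. Its intensity was 9934 and 850.4 in control samples 1 and 2, 1614 and 4182 in STZ, and 662 and 5571 in STZ+MENS. Each group thus held 1 high and 1 low sample, and all 3 groups overlapped. The samples of a group were 11.7-fold apart in control, 2.59-fold in STZ and 8.42-fold in STZ+MENS, whereas the 2 arrays of a sample differed by at most 0.46 on the log2 scale. Only 5 of the 17742 genes had a larger pooled SD between samples of a group than Asns (1.94, against a median of 0.17 over all genes). The differences were -0.18 ± 1.36 for STZ against control, -0.42 ± 1.36 for STZ+MENS against STZ and -0.59 ± 1.36 for STZ+MENS against control. The first of these has a 95% interval of -3.48 to 3.12, so changes of several fold either way were not detectable with 2 samples a group. Asns and Trib3 did not follow each other in the controls: sample 1 was the higher in Asns and the lower in Trib3.

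Chac1, a glutathione-degrading enzyme induced through ATF4, was lowest in STZ. Its intensity was 5626 and 8011 in control, 2992 and 3497 in STZ, and 6912 and 4991 in STZ+MENS. Both STZ samples lay below the other 4, and the control and STZ+MENS samples overlapped. STZ was 2.06-fold below control (-1.04 ± 0.24, 95% interval -1.63 to -0.45, limma adjusted p = 0.146) and STZ+MENS 1.80-fold above STZ (0.85 ± 0.24, 0.26 to 1.44, adjusted p = 0.108). These 2 differences rest on the same STZ samples. STZ+MENS differed from control by -0.19 ± 0.24. Chac1 and Trib3 thus differed from control in opposite directions in STZ, the one lower and the other higher in both samples.

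Atf5, a transcription factor related to ATF4 and abundant in liver, was highest in STZ+MENS. Its intensity was 84809 and 93299 in control, 108311 and 101456 in STZ, and 168026 and 149728 in STZ+MENS. The 6 samples fell into the order control, STZ, STZ+MENS with no overlap between any of the groups. STZ+MENS was 1.75-fold above control (0.81 ± 0.15, 95% interval 0.45 to 1.17, limma adjusted p = 0.118) and 1.49-fold above STZ (0.57 ± 0.15, adjusted p = 0.0926), and STZ differed from control by 0.24 ± 0.15. The arrays of STZ+MENS sample 2 disagreed, at intensities of 112892 and 186563, a gap of 0.72 on the log2 scale that was the largest of any sample of the 10 genes. With the first array of each sample alone, the difference of STZ+MENS from STZ was 0.44 ± 0.25, and with the second alone 0.70 ± 0.19.

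Atf4 itself, the factor upstream of these targets, kept the narrowest range. Its intensity was 110825 and 95741 in control, 89941 and 100182 in STZ, and 111442 and 94892 in STZ+MENS, with all groups overlapping. Its group means spanned 0.12 on the log2 scale, less than its pooled SD between samples of 0.14, and the 95% interval of STZ against control was -0.51 to 0.28. The mRNA of Atf4 does not report its translation, which was not measured.

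Ddit3 encodes CHOP, the factor that follows ATF4 in prolonged ER stress. Its intensity was 5242 and 4175 in control, 5278 and 3839.6 in STZ, and 2930.5 and 4278 in STZ+MENS, and the groups overlapped. The differences were -0.05 ± 0.25 for STZ against control (95% interval -0.67 to 0.56) and -0.35 ± 0.25 for STZ+MENS against STZ. Sesn2 encodes sestrin 2, a leucine sensor that restrains the growth kinase mTORC1. Its intensity was 648 and 726 in control, 623 and 1028 in STZ, and 459 and 702 in STZ+MENS, again with overlap between all groups. STZ differed from control by 0.21 ± 0.29 and STZ+MENS from STZ by -0.46 ± 0.29. For neither gene did a difference pass.

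Of the ER arm, Xbp1 encodes the factor that IRE1 activates by splicing. Its intensity was 117507 and 140550.4 in control, 93993 and 115256 in STZ, and 129272 and 125262 in STZ+MENS. Both STZ samples lay below the other 4, but the gap between STZ sample 2 and control sample 1 was small. The difference of STZ from control was -0.31 ± 0.17 (95% interval -0.72 to 0.11) and that of STZ+MENS from STZ was 0.28 ± 0.17. The array summed over what the probe hybridises, and spliced and unspliced Xbp1 were not told apart.

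Herpud1 encodes an ER membrane protein that helps to send misfolded proteins to the proteasome. Its intensity was 153019.9 and 184444 in control, 191722 and 235548 in STZ, and 213682 and 211740.1 in STZ+MENS. All 4 samples of the STZ-treated groups lay above both controls, but STZ sample 1 and control sample 2 were close and overlapped on single arrays. Herpud1 was on average 1.26-fold above control in STZ (0.34 ± 0.17, limma adjusted p = 0.386) and 1.27-fold in STZ+MENS (0.34 ± 0.17, adjusted p = 0.357). Its probe ranked 97 to 198 among the 26423 probes of an array, where the deposited normalization allows few distinct values. The probes of Atf5 (148 to 437), Xbp1 (210 to 405) and Atf4 (280 to 411) ranked near it, so a similar limit applies to them. Atf6, the membrane-bound sensor, was dim, at 127.67 to 187.78 on single arrays, below the 25th percentile of all probes (192.39 to 194.00). Its intensity was 180.1 and 187 in control, 162 and 139 in STZ, and 131 and 145 in STZ+MENS. The controls lay above the other 4 samples, with differences of -0.23 ± 0.14 in STZ and -0.32 ± 0.14 in STZ+MENS that the offset of 50 understates. With an offset of 16 the second was -0.38 ± 0.16.

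**Figure D2:**
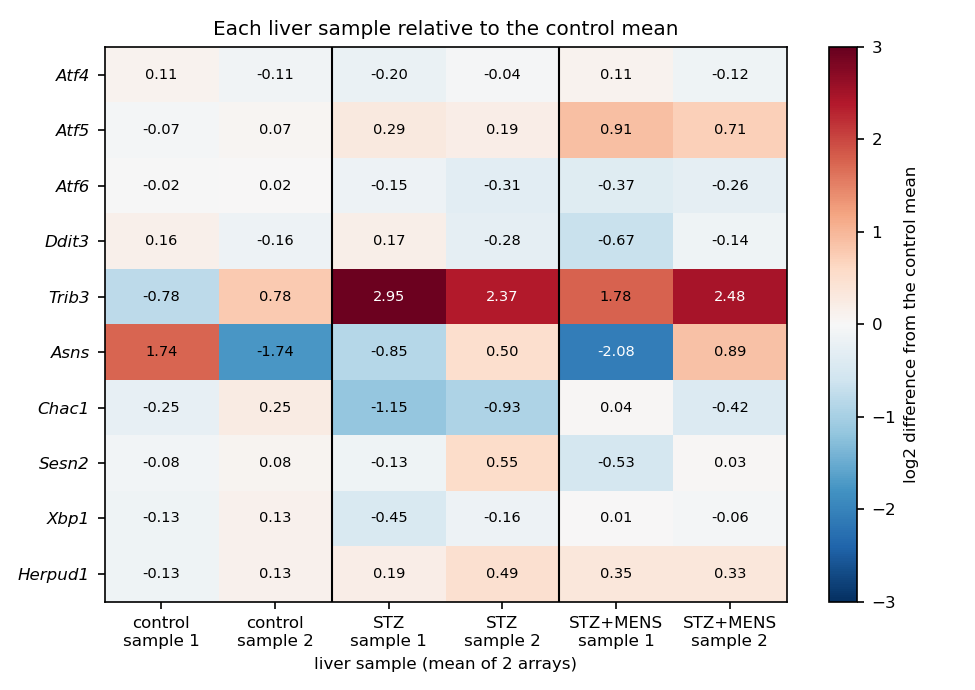
The 6 liver samples (columns) by the 10 genes (rows), each cell the log2 difference of that sample from the control mean, with red above and blue below. Trib3 is 1.78 to 2.95 above the control mean in all samples of the STZ-treated groups, Chac1 is -1.15 and -0.93 in the STZ pair, and Asns changes sign within every group.

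Counted over the 10 genes, STZ against control had 4 differences above 0 and 6 below, with a median of -0.09 against -0.02 for all genes. By the unadjusted p of limma, 1 was higher (Trib3; background 8.48% of all genes) and 1 lower (Chac1; background 8.49%). No overlap between the samples was seen for 3 genes that were higher (Atf5, Trib3 and Herpud1; 24.0% of all genes) and 3 that were lower (Atf6, Chac1 and Xbp1; 28.2%). These shares were close to those of all genes. Between STZ+MENS and STZ, 2 genes were higher by the unadjusted p (Atf5 and Chac1; 12.6% of all genes) and 0 lower (12.8%). Samples did not overlap for 3 that were higher (Atf5, Chac1 and Xbp1; 34.0%) and 0 that were lower (23.9%). Between STZ+MENS and control, 2 were higher by the unadjusted p (Atf5 and Trib3; 8.82%) and 0 lower (9.18%). Samples did not overlap for 3 that were higher (Atf5, Trib3 and Herpud1; 25.6%) and 1 that was lower (Atf6; 23.0%). Differences smaller than 0.5 in size were found for 8, 7 and 7 of the 10 genes in the 3 comparisons, against 83.9%, 75.8% and 81.5% of all genes.

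**Figure D3:**
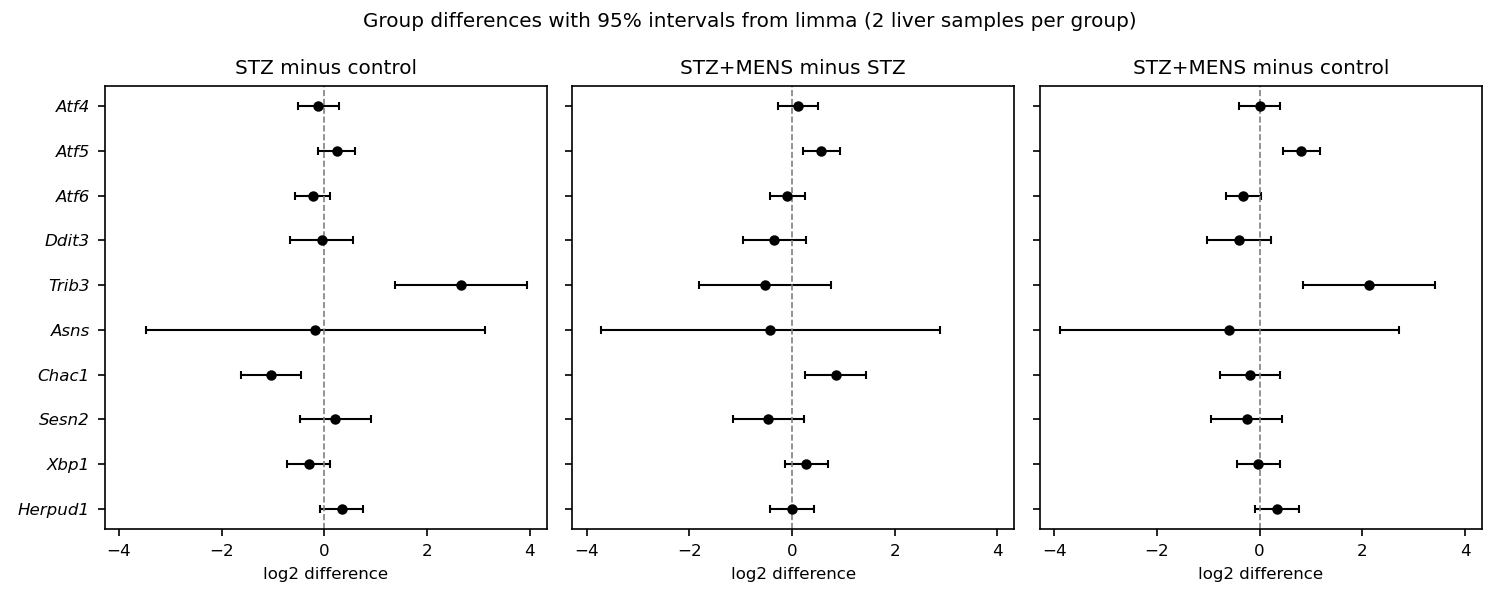
Log2 differences between groups (horizontal axis) for the 10 genes (vertical axis) in the 3 comparisons, with points for the limma estimates and bars for 95% intervals from 2 liver samples per group. The intervals of Trib3 lie above 0 in both comparisons with control, those of Chac1 on opposite sides of 0 in the first and second, and those of Asns span over 6 units.

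The other genes of these pathways were counted from 7 lists: ATF4 targets (33 of 35 measured), tRNA synthetases (11 of 12), ER chaperones and folding enzymes (19 of 20), ER-associated degradation (15 of 17), ER import and export (18 of 19), sensors and regulators of both pathways (20 of 20) and mitochondrial protein stress genes (8 of 9). None of these 124 genes passed over all genes in any comparison by the limma fit of 3 groups. In fits of 2 groups alone, 2 passed in STZ against control, Gdf15 and Cth, where 181 (1.02%) of all genes passed. In the other comparisons 0 passed, against 0% and 0.0113% of all genes. These 2 calls are not read as a result about the lists. The lists were drawn up with earlier results of these data known. The counts that follow are by the unadjusted p, and are read against the shares of all genes: 8.48% higher and 8.49% lower in STZ against control, 12.6% and 12.8% in STZ+MENS against STZ, and 8.82% and 9.18% in STZ+MENS against control. The genes named are the 3 of smallest p in each list and comparison, which need not differ most. In STZ against control, 3 of the 33 ATF4 targets were higher and 1 lower (all genes 8.48% and 8.49%), with a list median of 0.05, so the count was near that of all genes. Gdf15, a stress-induced hormone, stood furthest: its log2 level was 10.74 and 10.41 in control and 13.80 and 13.79 in STZ, a 9.33-fold difference (3.22 ± 0.48, limma adjusted p = 0.0926, and 0.00820 in the fit of these 2 groups alone). In STZ+MENS it was 11.46 and 13.04, so both samples lay between the other groups. Mthfd2, a mitochondrial folate enzyme, differed by -0.66 ± 0.16 and Chac2, a relative of Chac1, by 0.44 ± 0.16. Chac2 thus differed from control in the direction opposite to Chac1 in STZ, and again in STZ+MENS against STZ (-0.71 ± 0.16). Mthfd2 was higher in STZ+MENS than STZ by 0.56 ± 0.16, and Cth, which makes cysteine, was lower by -1.80 ± 0.51, with log2 levels of 14.96 and 16.66 against 17.61 and 17.61.

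From STZ to STZ+MENS, 4 of the 33 targets were higher and 4 lower (all genes 12.6% and 12.8%), with a list median of 0.05 against 0.06 for all genes. Against control 3 were higher and 0 lower (all genes 8.82% and 9.18%), with a median of 0.03 against 0.02. Both counts were near those of all genes or below them. The 3 were Gdf15 (1.68 ± 0.48), Nupr1 (0.77 ± 0.27), a stress-induced chromatin protein, and Shmt2 (0.40 ± 0.16), the mitochondrial serine hydroxymethyltransferase. Of the 11 tRNA synthetases, 2 were higher and 0 lower in STZ against control (all genes 8.48% and 8.49%), 1 higher and 4 lower in STZ+MENS against STZ (12.6% and 12.8%), and 1 higher and 1 lower in STZ+MENS against control (8.82% and 9.18%). Aars, the alanyl-tRNA synthetase, was the one that led: its log2 level was 8.23 and 8.28 in control, a mean of 9.45 ± 0.64 (SD, n = 2) in STZ, and 10.08 and 9.18 in STZ+MENS, differences from control of 1.20 ± 0.38 and 1.38 ± 0.38. Lars (0.39 ± 0.13) and Sars (-0.31 ± 0.16) came next in STZ. In STZ+MENS against STZ, Lars (-0.51 ± 0.13), Sars (0.57 ± 0.16) and Tars (-1.12 ± 0.32) led, and against control Tars (-0.84 ± 0.32) and Iars (-0.76 ± 0.34) followed Aars. These counts moved when single samples were left out. The shares of all genes at that p moved as well, here and for the lists below. The moves are therefore not read as a trait of the lists. A group that loses a sample has 1 left, which is assumed to vary like the other groups. The 4 ATF4 targets higher in STZ+MENS than STZ became fewer without STZ sample 1, STZ sample 2 or STZ+MENS sample 1. The 3 higher than in control became fewer without control sample 2. In each of these cases the share of all genes fell too. The count of 1 target lower in STZ than control rose without either control, STZ sample 2 or either STZ+MENS sample. There the share of all genes rose only without an STZ+MENS sample, and fell otherwise. The 2 synthetases higher in STZ became fewer without either control or either STZ sample. The 4 lower in STZ+MENS than STZ became fewer without STZ+MENS sample 1 or STZ sample 1. Both times the share of all genes fell too.

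Most ER chaperones lay lower in STZ+MENS than in control, none of them past the adjusted threshold. Against control, 11 of 19 were lower by the unadjusted p and 0 higher (backgrounds 9.18% and 8.82%). The samples of 15 did not overlap in the lower direction (23.0%), and the list median was -0.50 against 0.02 for all genes. The list was drawn up with earlier results of these data known, and its genes share the same 2 samples a group. The counts here, with samples left out as well, are thus a description only. Dnajb9, an ER cochaperone, had log2 levels of 13.31 and 13.11 in control, 13.10 and 12.45 in STZ, and 10.24 and 11.53 in STZ+MENS, a difference from control of -2.32 ± 0.43 (limma adjusted p = 0.122). Hspa13 (-0.89 ± 0.16) and Sdf2l1 (-0.75 ± 0.14) were the others with the smallest p, while Ero1b (-1.50), Hspa5 (-1.25), Pdia4 (-1.16) and Ero1a (-1.14), named after their values were seen, differed by more. Against STZ, 9 of 19 were lower and 1 higher (all genes 12.8% and 12.6%), with a median of -0.47 against 0.06 for all genes and the smallest p for Dnajc3, an inhibitor of the eIF2 kinases (-1.15 ± 0.16, adjusted p = 0.0595), Manf (-0.59 ± 0.13) and Dnajb9 (-1.89 ± 0.43). In STZ against control, 4 were lower and 1 higher (all genes 8.49% and 8.48%), with a median of -0.14, Sdf2l1 at -0.86 ± 0.14 (adjusted p = 0.107), Creld2 at -0.64 ± 0.19 and Dnajc3 at 0.54 ± 0.16. The list medians per sample, relative to control, were -0.67 and -0.45 in STZ+MENS and -0.10 and -0.20 in STZ. Without any 1 of the 6 samples, between 8 and 12 of the 19 chaperones were lower in STZ+MENS against control, where 4.58% to 11.3% of all genes were. With a control or STZ+MENS sample left out, that group has 1 sample, which is assumed to vary like the other groups. Leaving out an STZ sample changes none of the differences of STZ+MENS from control, only the spread they are set against. Either STZ sample left out gives the same test of them, so these fits do not probe the differences. The 4 lower in STZ against control became 2 without either control or either STZ sample.

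The hepatocyte markers moved with this result in part. Their mean difference from control was -0.86 and -0.35 in STZ+MENS samples 1 and 2, and -0.18 and -0.23 in STZ. In STZ+MENS samples 1 and 2, Apob stood at an intensity of 19071 and 61112 and Cps1 at 26185 and 72964, against at least 156980.5 and 104024 in control. Fgb stood at 268616 and 296614, against at least 354064 in control, and was also low in STZ, at 212681 and 309079.9. Hnf4a stood at 103005 and 123665, against 114536 and 124767 in control. Alb stood at 471619 and 477802 against at least 485802, Ttr at 517253 and 538511 against at least 512298, and Apoa1 at 522631 and 511446 against at least 517253. Values recur between these bright genes: 517253 is both Ttr in STZ+MENS sample 1 and Apoa1 in control sample 1. The limit of few distinct values given for Herpud1 thus applies to Alb, Ttr and Apoa1. The part of these marker differences in the chaperone values was not tested. Plasma cells and pancreatic acinar cells hold much Xbp1. The 7 lymphoid and plasma cell markers differed from control by a mean of 0.30 and 0.01 in STZ+MENS and -0.25 and -0.13 in STZ, and the plasma cell gene Jchain did not exceed 346 in any sample. Their summed intensity was 8765 to 10636 in control, 7767 to 8273 in STZ and 8959 to 11292 in STZ+MENS. The 6 measured pancreatic acinar markers differed by -0.18 to -0.08 in the 4 samples of the STZ-treated groups, and Pnlip, pancreatic lipase, did not exceed 61.25. Their summed intensity was 47159 to 47228 in control, 24258 to 28032 in STZ and 23326 to 26009.5 in STZ+MENS, and the difference lay in Cela1, an elastase (37344 or more in control, 19299.5 or less in the other 4 samples). The part of either list in the ER values was not tested.

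The remaining ER lists lay in the same direction with smaller medians. Of the 15 degradation genes, 6 were lower and 1 higher in STZ+MENS against control (all genes 9.18% and 8.82%), with a median of -0.40 and the smallest p for Edem3 (-1.01 ± 0.27), Ubxn4 (-0.54 ± 0.15) and Herpud2 (-0.46 ± 0.14), the close relative of Herpud1; without control sample 1 or 2 the count of 6 was 3 or 2 (all genes 4.58% or 6.54%). Against STZ, 5 were lower and 3 higher (all genes 12.8% and 12.6%), with Herpud2 at -0.93 ± 0.14 and with Edem2 (0.96 ± 0.15) and Os9 (0.76 ± 0.14), both of which handle misfolded glycoproteins, in the other direction. In STZ against control, 5 were lower and 2 higher (all genes 8.49% and 8.48%), among them Ubxn4 (-0.53 ± 0.15), Os9 (-0.49 ± 0.14) and Herpud2 (0.47 ± 0.14), and the 5 became 3, 1, 2 or 2 without control sample 1, control sample 2, STZ sample 1 or STZ sample 2. Herpud2 thus went from higher in STZ to lower in STZ+MENS, while Herpud1 stood at the same mean in both. Of the 18 import and export genes, 6 were lower and 0 higher in STZ+MENS against control (all genes 9.18% and 8.82%), with a median of -0.31. The smallest p were those of Spcs3 (-0.70 ± 0.15), Sec24d (-0.69 ± 0.20) and Srp54a (-0.96 ± 0.28). Without control sample 1 or STZ+MENS sample 1 the count of 6 fell, and so did the share of all genes. In STZ+MENS against STZ, 4 were lower and 1 higher (all genes 12.8% and 12.6%), with Sec24d (-1.18 ± 0.20) and Srp54a (-0.95 ± 0.28) lower and Spcs2 (0.49 ± 0.15) higher. The count of 4 fell without STZ+MENS sample 1 or STZ sample 1, as did the share of all genes. In STZ against control, 2 were lower and 1 higher, near the shares of all genes (8.49% and 8.48%): the translocon subunit Sec61a1 (-0.61 ± 0.17), Rpn1 (-0.58 ± 0.18) and Sec24d (0.49 ± 0.20).

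Among the 20 sensors and regulators, Eif2ak3, the PERK kinase, was lower in both STZ-treated groups. Its log2 level was 12.94 and 12.66 in control, 12.16 and 12.05 in STZ, and 11.79 and 11.36 in STZ+MENS, with no overlap between groups. The differences from control were -0.69 ± 0.20 and -1.22 ± 0.20 (limma adjusted p = 0.182 and 0.111). Crebrf, a regulator of the unfolded protein response, was higher in STZ+MENS than in both other groups, at 13.64 and 13.67 against 12.65 and 12.82 in control and 12.63 and 12.64 in STZ (1.01 ± 0.14 against STZ, adjusted p = 0.0595, and 0.92 ± 0.14 against control, adjusted p = 0.111). In the list as a whole, 1 was higher and 2 lower in STZ against control (all genes 8.48% and 8.49%). In STZ+MENS, 4 were higher and 8 lower against STZ (12.6% and 12.8%), and 1 higher and 6 lower against control (8.82% and 9.18%). The 6 became fewer without control sample 1, the 8 without STZ sample 1 and the 4 higher without STZ+MENS sample 1. The share of all genes fell as well in each case. Creb3l3 (0.40 ± 0.15) and Atf6b (-0.46 ± 0.18), the paralogue of Atf6, followed in STZ, Mbtps2 (-0.59 ± 0.14), the protease that cuts ATF6, and Eif2s1 (-0.85 ± 0.20) in STZ+MENS against STZ, and Wfs1 (-0.80 ± 0.22) against control.

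Of the 8 mitochondrial stress genes, 1 was higher and 0 lower in STZ against control (all genes 8.48% and 8.49%), 4 were lower and 0 higher in STZ+MENS against STZ (12.8% and 12.6%; median -0.62), and 2 were lower and 0 higher in STZ+MENS against control (9.18% and 8.82%). The protease subunit Clpx had log2 levels of 12.97 and 13.00 in control, 14.36 and 13.97 in STZ, and 11.95 and 12.77 in STZ+MENS (1.19 ± 0.29 for STZ against control, -1.81 ± 0.29 for STZ+MENS against STZ and -0.63 ± 0.29 for STZ+MENS against control). Lonp1 (0.51 ± 0.38) and Dele1 (0.15 ± 0.20), the messenger that carries mitochondrial stress to the eIF2 kinases, came next in STZ. The chaperones Hspe1 (-2.11 ± 0.54 against STZ, -1.79 ± 0.54 against control) and Hspa9 (-1.58 ± 0.45 and -1.42 ± 0.45) were lowest in STZ+MENS sample 1, at 10.89 and 13.84, the sample with the low Apob and Cps1. The count of 2 that were lower against control fell without control sample 1 or 2 and rose without STZ+MENS sample 2. The count of 4 that were lower against STZ fell without STZ sample 1. In each case the share of all genes moved the same way.

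**Figure D4:**
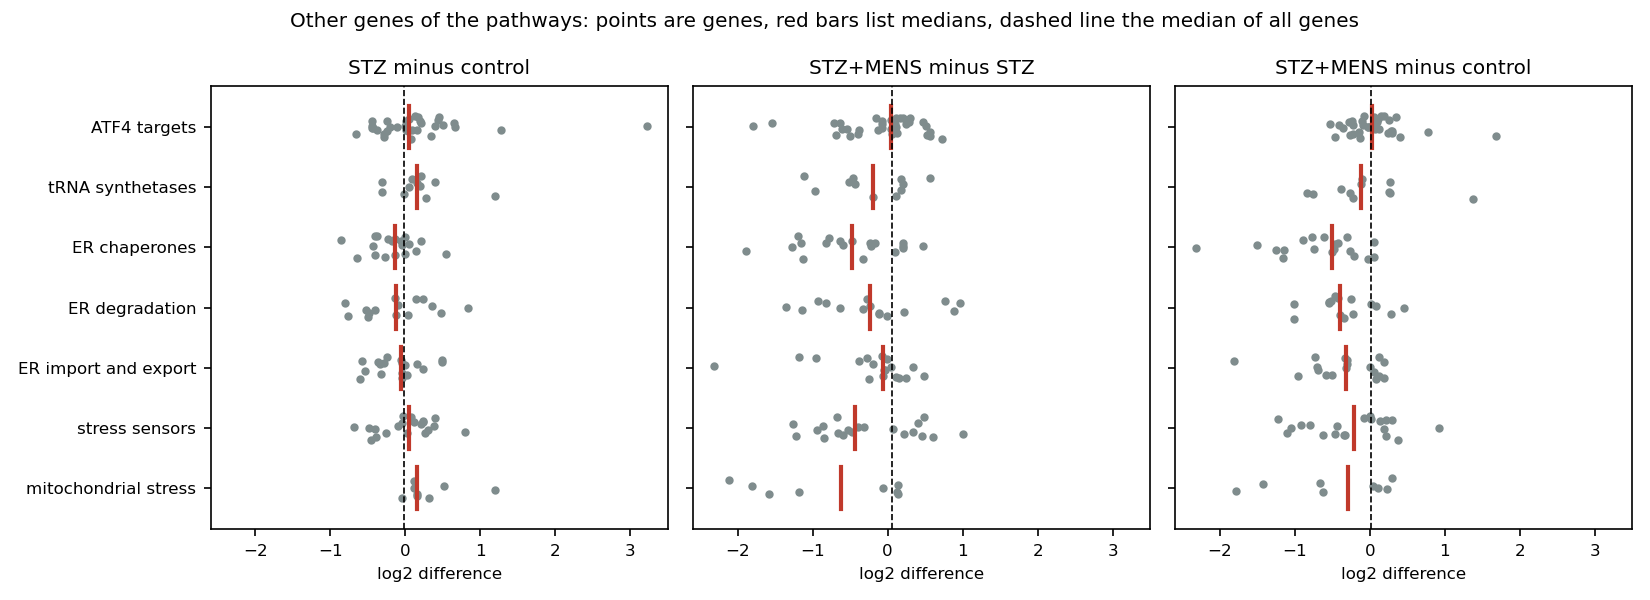
Log2 differences (horizontal axis) of the other genes of the pathways in 7 lists (vertical axis) for the 3 comparisons; points are genes, red bars list medians and the dashed line the median of all genes. The ATF4 targets centre on the dashed line in every comparison, and the ER chaperones lie to its left in STZ+MENS against control, with a median of -0.50.

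The genes most like the 4 members with the widest group means were found by the root mean square (RMS) difference over the 6 samples, each gene centred on its own mean. Nearest to Trib3 were Gal3st1, a sulphotransferase (RMS difference 0.46), Zbtb16, a transcription factor (0.54), and Acot1, an acyl-CoA thioesterase (0.55), where Trib3 itself had an SD of 1.38 over the samples. Nearest to Asns (SD 1.53) were Psmc3ip (0.52), Ctse (0.71) and Gabra3 (0.75). Psmc3ip, like Asns, was high in control sample 1 and low in control sample 2 and STZ+MENS sample 1, with log2 levels of 11.03, 7.80 and 7.68, and stood between 8.90 and 9.61 in the other 3 samples. Nearest to Chac1 (SD 0.55) were Gbp11 (0.07), Hoxb5 (0.09) and Tas2r116 (0.09), and nearest to Atf5 (SD 0.38) Pigm (0.05), Pde4c (0.07) and Abcd4 (0.07). These are the nearest of 17742 genes over 6 samples, a description only.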

How the data were processed

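The 12 arrays (Phalanx Mouse OneArray v2, Cy5) were deposited as 1 table of linear probe intensities for 26423 probes. How the authors corrected background and normalized is not stated by any source at hand; their notes on processing, per the labels, list limma 3.30.7. The deposited intensity values ran from -73.94 to 575541.28 with array medians of 768.89 to 770.33 and nearly the same sorted values on each array (spanning at most 6.31% of their mean past the 1000 lowest), the form that background subtraction and quantile normalization leave. That normalization hides any change of all genes together.

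Probes were named from the platform annotation (20377 with 1 symbol, 0 with several, 6046 unnamed here), updated through RefSeq GRCm38.p6 symbols (2126 by synonym, 38 left as they were). The probe with the highest mean over the arrays stood for a gene. Values below 0 were set to 0, 50 was added, log2 was taken and the 2 arrays of a sample were averaged. One limma fit (limma 3.58.1, R 4.3.3) with a mean per group used all 6 samples, with 3 residual and 3.2 prior degrees of freedom; tests were two-sided, adjusted by Benjamini-Hochberg over all 17742 genes, at 0.05. With 2 samples a group, exact permutation could not reach that threshold. The fit was tested on simulated data. The number of arrays limits the precision. Errors are standard errors of the fit.

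The members and lists were chosen with earlier results of these data known. All 10 members were named whatever their result, and in each list the 3 genes of smallest p in a comparison; 1 list gene may recur. For likeness, predicted genes and clones were skipped. Cell type marker lists not quoted in the results (Kupffer, endothelial, stellate, bile duct, neutrophil, erythroid) showed mean differences from control, per STZ or STZ+MENS sample, of -0.47 to 0.38, -0.13 to 0.16, -0.21 to 0.12, 0.23 to 0.45, -0.11 to 0.04 and, for the 1 erythroid gene measured, -3.29 to 0.26. Plots were drawn with matplotlib 3.10.9.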

Additional observations from a re-analysis of the deposited data

How the results depend on the processing

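Of the 516 values of the 10 genes under alternatives other than leaving out a sample, 500 kept their direction and their side of the threshold, 13 came to pass and 3 changed sign. Many of the 500 had little room to change. Each of the 10 genes has 1 probe, so averaging all probes or fitting every probe left its differences as they were. Median scaling and repeated quantile normalization met arrays with nearly the same sorted values already. Values of the test of any difference have no sign. The 13 all came from fits of the 12 arrays with the liver sample as a random block, with or without the array number as a replicate block. These concerned Trib3 and Chac1 in STZ against control and in the test of any difference, Chac1 in STZ+MENS against STZ, Trib3 in STZ+MENS against control and, without the array number only, Atf5 in STZ+MENS against control (adjusted p = 0.0481). That fit assumes 1 correlation of 0.485 between arrays of a sample for every gene, while the arrays of a Trib3 sample differed by at most 0.18 and its control samples by 1.55. The sign changed with the first arrays alone for Herpud1 in STZ+MENS against STZ (-0.04), and with the second arrays alone for Atf6 in STZ+MENS against STZ (0.02) and Atf4 in STZ+MENS against control (0.02).

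The counts of genes called (1, 0 and 1 in the 3 comparisons, 1 in the test of any difference) became 0, 0 and 0 (0 in the test of any difference) at an offset of 200, 181, 0 and 2 in fits of 2 groups alone, and 1204, 3079 and 1336 (3442) with arrays as units and the sample as a random block. They were 1024, 2741 and 1051 (2868) with the array number as a replicate block, and 4, 0 and 3 (2) with the first arrays alone or 0, 30 and 0 (0) with the second. The titles give control and STZ+MENS the same sample numbers (1 and 6) but STZ others (4 and 10), so a replicate block by sample number was fitted for STZ+MENS against control only, in a form chosen after seeing the data, and not run for the comparisons with STZ or the test of any difference. It called 0 genes and changed no call of the 10 genes. Deviations of same-numbered control and STZ+MENS samples correlated at -0.03. Those of array numbers correlated at -0.23 to 0.34 over 15 pairs of samples, with a median of -0.04. With so few samples, such correlations cannot decide whether the numbers pair them. The cause of these moves was not tested. Of the 124 other pathway genes, 7, 43 and 23 were called with arrays as units, beside 1204, 3079 and 1336 of all 17742 genes. With the array number as well, 7, 40 and 22 were called, beside 1024, 2741 and 1051 of all genes. Fits of 2 groups alone called 2, 0 and 0 of them, beside 181, 0 and 2 of all genes. The other alternatives that kept all samples and tested genes called 0 of the 124. Single probes were not counted. Leaving out each sample in turn gave 0 to 181, 0 to 1759, 0 to 12 and 0 to 902 genes; 181 came without either STZ+MENS sample, and 1759, 12 and 902 without STZ+MENS sample 2.

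Of the 240 values of the 10 genes with a sample left out, 19 changed sign and 221 did not. Many of the 221 could not change sign. Values of the test of any difference have none, and leaving out a sample of a group outside a comparison leaves its difference unchanged. For the differences that changed sign, the ranges were -0.28 to 0.17 (Ddit3), -1.91 to 1.56 (Asns) and -0.13 to 0.55 (Sesn2) in STZ against control. In STZ+MENS against STZ they were 0.00 to 0.23 (Atf4), -1.90 to 1.07 (Asns) and -0.15 to 0.15 (Herpud1). In STZ+MENS against control they were -0.12 to 0.11 (Atf4), -2.33 to 1.14 (Asns), -0.44 to 0.06 (Chac1), -0.16 to 0.10 (Xbp1) and -0.53 to 0.03 (Sesn2). Leaving out samples for the list counts was chosen after seeing the data.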
